A study of Mus musculus with 6 samples.

Results

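Acyl-CoA thioesterases (ACOT proteins) are the subject of the values given here. The members were the 10 genes Acot1, Acot2, Acot3, Acot4, Acot5, Acot7, Acot8, Acot9, Acot11 and Acot13, taken by gene symbol out of 17924 genes with values, and all 10 passed the filter on low values that left 16252 genes for testing. Dermal fibroblasts were taken from the dorsal skin of newborn (P0) C57BL/6J mice and kept for 14 days in adipocyte differentiation medium, after which RNA-seq was done on 3 control (CTL) and 3 Nelfb-/- cultures described as biological triplicates. Both groups carried the Pdgfra-Cre transgene, whose recombinase is made under the promoter of a receptor of fibroblasts and preadipocytes. CTL cells were Nelfb wt/wt or Nelfb fl/wt, without a statement of which library had which, and Nelfb-/- cells were Nelfb fl/fl. Nelfb encodes a subunit of the negative elongation factor, which holds RNA polymerase II shortly after the start of transcription. The question addressed is how far transcripts of each thioesterase differ between CTL and Nelfb-/- cells under adipogenic conditions. How many animals went into a culture is not given in the sources used here.

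ACOT enzymes cut the thioester bond of a fatty acyl-CoA and release the free fatty acid and CoA, which is the reverse of the step that acyl-CoA synthetases carry out. They thereby set how much activated fatty acid is at hand for oxidation, for esterification and for signalling in each compartment of the cell. There are structural classes of separate origin: the alpha/beta hydrolase enzymes, encoded by a run of close copies on mouse chromosome 12 (Acot1 to Acot6), and the hot dog fold enzymes, encoded by scattered genes (Acot7 to Acot13). ACOT1 is cytosolic, ACOT2 is in the mitochondrial matrix, and ACOT3, ACOT4 and ACOT5 are peroxisomal. In the liver, genes of the cluster are well known to be induced by fasting and by ligands of the receptor PPARalpha.

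Because the cluster genes are so alike, the sequences that tell them apart are shown first. On GRCm38 and all on the plus strand of chromosome 12, Acot2 (ENSMUSG00000021226) spans 83987861 to 83993873, Acot1 (ENSMUSG00000072949) 84009490 to 84018371, Acot4 (ENSMUSG00000052392) 84038379 to 84048601, Acot3 (ENSMUSG00000021228) 84052144 to 84060402, Acot5 (ENSMUSG00000042540) 84069325 to 84076020 and Acot6 (ENSMUSG00000043487, not a member) 84100654 to 84111349. Coding sequences of Acot1 and Acot2 were identical at 95.6% of 1236 aligned bases, those of Acot3 and Acot5 at 85.4%, and that of Acot4 was the most distant member, at 73.8% to 75.4% identity to the other 4. The lines that follow give coding bases 5 to 64 of Acot4, in its exon 1 (chr12:84038515-84038574, plus strand), and the aligned bases of the other copies. Capitals mark bases that differ from Acot4.
Acot1: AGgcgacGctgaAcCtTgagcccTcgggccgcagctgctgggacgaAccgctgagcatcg
Acot2: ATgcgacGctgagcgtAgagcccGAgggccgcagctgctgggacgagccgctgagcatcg
Acot3: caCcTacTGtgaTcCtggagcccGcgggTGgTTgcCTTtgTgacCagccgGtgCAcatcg
Acot4: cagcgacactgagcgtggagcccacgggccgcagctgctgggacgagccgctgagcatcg
Acot5: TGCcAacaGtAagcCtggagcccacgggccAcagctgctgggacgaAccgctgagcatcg
Acot6: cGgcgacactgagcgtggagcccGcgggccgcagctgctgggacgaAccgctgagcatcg
Acot2 differed from Acot4 at 6 of these 60 bases, Acot1 at 8, Acot5 at 9 and Acot3 at 19. Over whole transcripts, 32.1% of the 50-base windows of Acot1 and 27.6% of those of Acot2 were also found in another gene of the family or in the antisense gene 4732463B04Rik, against 22.8% for Acot5, 13.7% for Acot4 and 9.88% for Acot3. Counted against all other genes, the shares were 33.6% for Acot1, 27.7% for Acot2, 22.8% for Acot5, 21.7% for Acot3 and 14.4% for Acot4. On this count Acot7 and Acot13 shared 0% of their windows, and Acot11 shared 24.4% with Fam151a, which is no member of the family.

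Values of several members were not whole reads. The deposited unit is CPM (counts per 1e+06 reads on all listed genes, not corrected for length), and the lowest values of each library rose in equal steps that gave the worth of 1 read. Multiplied back by the depth so found, Acot7, Acot11 and Acot13 were whole reads (within 0.05 read) in 6 of 6 libraries, whereas Acot1 and Acot2 were whole in 0, Acot3, Acot4, Acot8 and Acot9 in 1 and Acot5 in 2. Shared windows and parts of reads thus did not go together in every case, since Acot11 was whole. Summed over Acot1 to Acot6 and 4732463B04Rik, the values were whole again in 6 of 6 libraries, at 2942, 3344 and 3549 reads in CTL and 956, 660 and 1081 reads in Nelfb-/- cells. The values of single copies thus held parts of reads that added up over the cluster, and they are uncertain to that extent. In the same way Acot9 (chromosome X, 155262443 to 155297654) was whole in 6 of 6 libraries together with Acot10, an intronless copy of it on chromosome 15 with 97.2% coding identity, and so was Acot8 together with Snx21, which overlaps it on the opposite strand. These groupings were chosen after the values were seen.

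Depth on the listed genes lay between 17.2 and 29.4 M reads a library (M, 1e+06), and 3 reads, taken as the floor, were worth 0.102 to 0.175 CPM. Nelfb, the deleted gene, was at 17.3, 19.6 and 22.3 CPM across CTL and at 5.50, 3.90 and 5.55 CPM across Nelfb-/- libraries, a change of -1.99 in log2 (log2 fold change or log2FC of Nelfb-/- over CTL, SE 0.22, limma, adjusted p = 0.0050). A gene was called when its adjusted p was at most 0.05 and its change at least 2-fold, which held for 1824 genes, 592 lower and 1232 higher in Nelfb-/- cells. With quantile normalization the split was 834 lower and 1014 higher, and the median log2FC of all genes moved from 0.068 to -0.068. CTL replicate 3 stood apart from the other CTL libraries, with a summed level of 10 fibroblast and preadipocyte markers at the top of a CTL range of 3133 to 12390 CPM and a summed level of 14 white adipocyte markers at the bottom of a range of 28548 to 46781 CPM. Nelfb-/- replicate 1 stood apart from the other Nelfb-/- libraries, with a lower fibroblast sum (6936 CPM against 24807 and 26429) and higher sums of macrophage (6665 against 2131 and 3613), melanocyte (214 against 103 and 116) and skeletal muscle markers (115 against 61.2 and 65.9). Without it Acot1, Acot2, Acot4 and Acot5 were called, and Acot3 missed the limit (limma, adjusted p = 0.052, log2FC -2.44). The adipocyte label was checked on the 14 white adipocyte markers, of which none was at or under 3 reads in every library. Retn was called lower (log2FC -2.12, limma, adjusted p = 0.013), Lep was called higher (5.26, limma, adjusted p = 0.014) and 11 of 14 had negative values. Fabp4 and Lpl made up 56.6% to 65.04% of their sum, and the Nelfb-/- sums lay between 20152 and 29067 CPM, overlapping CTL. Brown adipocyte markers summed to 231 to 295 CPM in CTL and to 22.5 to 49.7 CPM in Nelfb-/- cells. Of these, 4 of 9 were called lower, against 3.64% of all genes tested. Markers of other cells were counted over those with values, beside 7.58% of all genes tested that were called higher. Of macrophage markers, 9 of 10 were called higher (218 to 789 CPM in CTL, 2131 to 6665 CPM in Nelfb-/-). So were 7 of 9 for skeletal muscle (11.2 to 12.5 against 61.2 to 115 CPM) and 6 of 7 for melanocytes (56.5 to 81.6 against 103 to 214 CPM). The count was 3 of 4 for Schwann cells (22.2 to 26.9 against 110 to 135 CPM) and 2 of 7 for keratinocytes (3.34 to 3.83 against 8.34 to 19.8 CPM). It was 1 of 8 for endothelial cells (8.47 to 12.04 against 9.26 to 23.3 CPM) and 1 of the 10 fibroblast markers (6936 to 26429 CPM in Nelfb-/-), both with overlapping group sums. No marker with values was at or under the floor in every library. Their part in the values of the thioesterases was not tested.

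All 5 cluster members were lower in Nelfb-/- cells, and none of the 5 other members was called. Acot1, Acot2, Acot3, Acot4 and Acot5 passed both limits (limma, 5 of 10 members, against 3.64% of all genes tested that were called lower and 11.2% called in either direction). Only Acot2 and Acot5 stayed called under every alternative run, while Acot1, Acot3 and Acot4 lost the call under some of them. No member was called higher, against 7.58% of all genes, and 7 of 10 had a negative log2FC, against 45.4%. Those of the 5 called members lay between -2.31 and -1.51 with a median of -1.98, beside a median of 0.068 over all genes. Among the other 5, limma called 0, with 2 at an unadjusted p under 0.05 (Acot11 and Acot13; 32.5% of all genes were under it), and their median log2FC was 0.0074. Groups did not overlap for 8 of 10 members, 6 with Nelfb-/- below CTL and 2 above, where 38.1% of all genes did not overlap, 16.1% below and 22% above. In bulk cultures, fewer cells that express a gene and less of its RNA in each cell cannot be told apart.

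**Figure D1:**
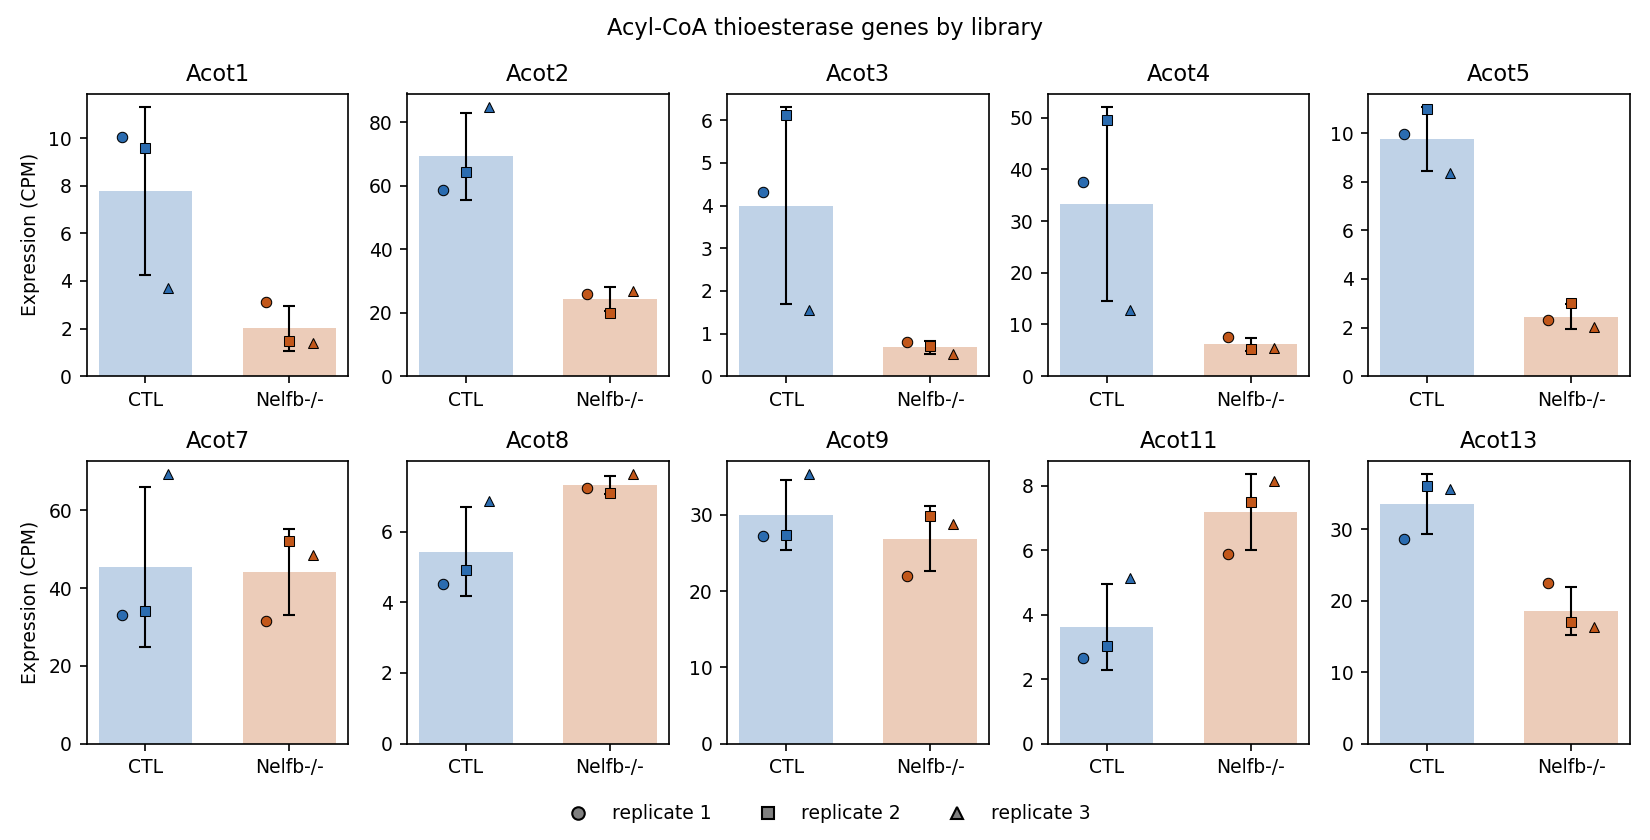
Expression of the 10 thioesterase genes in CPM (linear axes from 0, one panel a gene) in 3 CTL and 3 Nelfb-/- libraries; bars are group means, whiskers 1 SD, and the marker shape gives the replicate number. Acot1 to Acot5 and Acot13 have every Nelfb-/- library below every CTL library, and CTL replicate 3 (triangle) is the lowest CTL library for Acot1, Acot3, Acot4 and Acot5 and the highest for Acot2, Acot7, Acot8, Acot9 and Acot11.

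Acot2, which encodes the mitochondrial matrix enzyme, was the most abundant of the cluster genes. It had 58.7, 64.3 and 84.9 CPM across CTL and 25.9, 19.9 and 27.0 CPM across Nelfb-/- libraries, here as elsewhere in the order of replicates 1, 2 and 3. Every Nelfb-/- library was thus below every CTL library, and CTL replicate 3 was the highest of all. The CTL mean was 69.3 ± 13.8 CPM (SD, n = 3) and the Nelfb-/- mean 24.2 ± 3.82 CPM (log2FC -1.51, SE 0.20, limma, adjusted p = 0.0076). Leaving out each library in turn gave -1.62 to -1.35, and the call held in 6 of 6 such fits.

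Acot1 encodes the cytosolic enzyme, the closest copy of ACOT2 without its mitochondrial targeting. It was at 10.04, 9.60 and 3.72 CPM across CTL and at 3.11, 1.49 and 1.41 CPM across Nelfb-/- libraries. CTL replicate 3 lay close to Nelfb-/- replicate 1, and the groups did not overlap. The log2FC was -1.90 (SE 0.50, limma, adjusted p = 0.048), just inside the limit. The call was lost without CTL replicate 1 (-1.65, limma, adjusted p = 0.16), CTL replicate 2 (-1.68), Nelfb-/- replicate 2 (-1.74) or Nelfb-/- replicate 3 (-1.70), with adjusted p of 0.14 to 0.17, and without CTL replicate 3 the change was -2.36 (limma, adjusted p = 0.016).

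Acot4, Acot3 and Acot5 encode peroxisomal enzymes: ACOT4 prefers succinyl-CoA and the CoA esters of other dicarboxylic acids, and ACOT3 and ACOT5 act on long and medium chain acyl-CoAs. Acot4 was measured at 37.6, 49.5 and 12.8 CPM across CTL and at 7.60, 5.35 and 5.47 CPM across Nelfb-/- libraries. CTL replicate 3 was well below the other CTL libraries but still above every Nelfb-/- library. Its log2FC was -2.24 (SE 0.50, limma, adjusted p = 0.031), or 4.73-fold lower on the log2(reads + 1) scale. Without CTL replicate 1, CTL replicate 2, Nelfb-/- replicate 2 or Nelfb-/- replicate 3 the change was -2.05, -1.85, -2.15 and -2.17, respectively, and the call was lost each time (limma, adjusted p between 0.094 and 0.11). Without CTL replicate 3 the change was -2.82 (limma, adjusted p = 0.0047).

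Acot3 was at 4.32, 6.14 and 1.54 CPM across CTL and at 0.810, 0.699 and 0.512 CPM across Nelfb-/- libraries, the latter worth 12 to 17.1 reads. Its CTL libraries followed the order of those of Acot4, and again CTL replicate 3 was the lowest while the groups did not overlap. The log2FC was -2.31 (SE 0.54, limma, adjusted p = 0.035). Its call held only without CTL replicate 3 (-2.88, limma, adjusted p = 0.0079). It was lost without CTL replicate 1 (-2.15), CTL replicate 2 (-1.90), Nelfb-/- replicate 1 (-2.44), Nelfb-/- replicate 2 (-2.34) or Nelfb-/- replicate 3 (-2.13), with adjusted p (limma) between 0.052 and 0.13. The antisense gene 4732463B04Rik (chromosome 12, 84039469 to 84053807, minus strand) overlaps both Acot4 and Acot3. It stood at 1.85, 3.31 and 0.672 CPM across CTL and at 0.512, 0.531 and 0.210 CPM across Nelfb-/- libraries (log2FC -1.94, SE 0.66, limma, adjusted p = 0.097). Whether counting used strand is not given in the sources used here, so that reads of the antisense gene and of its sense partners cannot be told apart. Acot4 and 4732463B04Rik taken as 1 feature had a log2FC of -2.22 (SE 0.50, limma, adjusted p = 0.031), an alternative chosen after the data were seen.

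Acot5 was the steadiest of the peroxisomal copies, at 9.95, 10.97 and 8.37 CPM across CTL and at 2.29, 3.03 and 2.04 CPM across Nelfb-/- libraries. CTL replicate 3 was again the lowest CTL library, but much nearer to the other CTL libraries than to any Nelfb-/- library. Group means were 9.77 ± 1.31 CPM (SD, n = 3) and 2.45 ± 0.513 CPM (log2FC -1.98, SE 0.24, limma, adjusted p = 0.0062). Its call held in 6 of 6 fits without 1 library, with changes from -2.14 to -1.86. Acot6, the next copy along the chromosome and the last of the cluster, was at 10.2, 12.2 and 8.71 CPM across CTL and at 5.14, 7.45 and 7.51 CPM across Nelfb-/- libraries. The groups of Acot6 did not overlap, and it was not called (log2FC -0.64, SE 0.24, limma, adjusted p = 0.12).

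**Figure D2:**
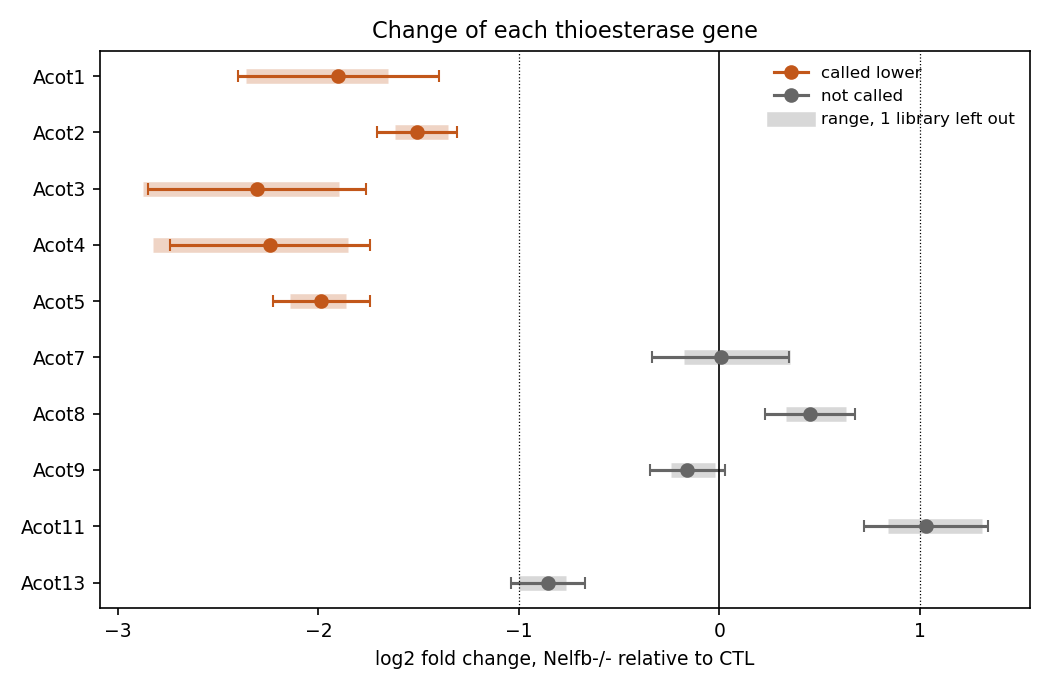
Log2 fold change of each member, Nelfb-/- relative to CTL (x axis), with points for the estimate, whiskers for 1 SE, and pale bands for the range when each of the 6 libraries is left out; dotted lines mark 2-fold. The 5 cluster genes lie between -2.31 and -1.51, and the bands of Acot1, Acot3 and Acot4 are wider than those of Acot2 and Acot5.

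Since values of single copies held parts of reads, the 5 were also summed in each library. The Acot1 to Acot5 sum was 121, 141 and 111 CPM across CTL and at 39.7, 30.4 and 36.4 CPM across Nelfb-/- libraries. The lowest CTL library was therefore far above the highest Nelfb-/- library. CTL replicate 3 no longer stood out, as its high Acot2 value made up for its low Acot1, Acot3 and Acot4 values. Means were 124 ± 14.9 CPM (SD, n = 3) for CTL and 35.5 ± 4.69 CPM for Nelfb-/- cells, a log2 difference of -1.81 (SE 0.15) or 3.50-fold lower. The exact two-sided permutation test gave p = 0.1, the smallest that 3 against 3 libraries allow. As 1 feature in place of its 5 rows in the limma fit over all genes, the sum had a log2FC of -1.81 (SE 0.16, adjusted p = 0.0035). Left out in turn, the libraries moved the difference only between -1.89 and -1.70. Extended to Acot6 and 4732463B04Rik, the grouping whose reads were whole, the sum went from 136 ± 18.0 to 42.6 ± 3.69 CPM (log2 difference -1.67, SE 0.13, exact permutation p = 0.1). With Acot2 left out, the Acot1 to Acot5 sum was 61.9, 76.2 and 26.4 CPM across CTL and 13.8, 10.6 and 9.43 CPM across Nelfb-/- libraries. There CTL replicate 3 stood out again (log2 difference -2.17, SE 0.50, exact permutation p = 0.1).

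**Figure D3:**
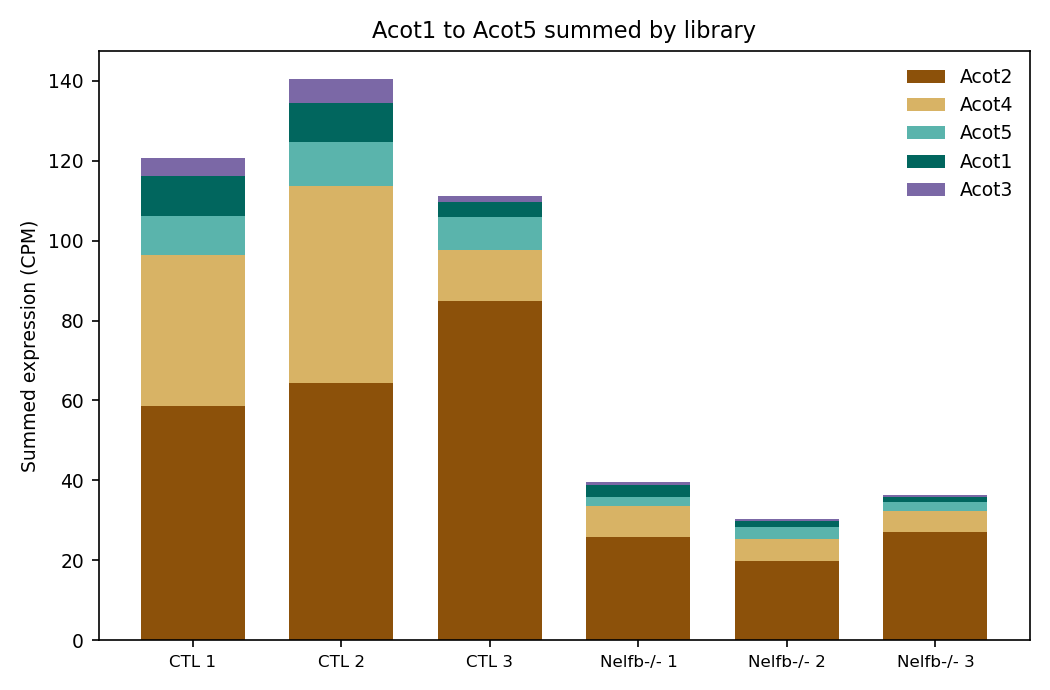
Stacked bars of the CPM of Acot2, Acot4, Acot5, Acot1 and Acot3 in each of the 6 libraries, so that bar height is the Acot1 to Acot5 sum in CPM. The 3 CTL bars reach 111 to 141 CPM and the 3 Nelfb-/- bars 30.4 to 39.7 CPM, and the Acot4 segment is small in CTL replicate 3.

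The make-up of the sum varied widely among CTL libraries. Acot2 made up 48.6%, 45.8% and 76.3% of the summed CPM in CTL replicates 1, 2 and 3 and 65.2%, 65.3% and 74.1% in Nelfb-/- replicates 1, 2 and 3. Acot4 made up 31.2%, 35.2% and 11.5% in CTL and 19.1%, 17.6% and 15.03% in Nelfb-/- cells. CTL replicate 3 thus had the largest Acot2 share and the smallest Acot4 share of all 6 libraries, and the ranges of the groups overlapped for every copy. Acot1 contributed 6.17% ± 2.55 (SD, n = 3) in CTL and 5.54% ± 2.06 in Nelfb-/- cells, Acot5 7.86% ± 0.366 and 7.11% ± 2.46, and Acot3 3.11% ± 1.55 and 1.91% ± 0.458. Of the summed CPM of all 10 members, Acot1 to Acot5 held 55.6%, 57.1% and 42.2% in CTL and 30.8%, 21.1% and 24.9% in Nelfb-/- cells.

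Of the hot dog fold members, Acot13 was lower, Acot11 and Acot8 had higher values and Acot7 and Acot9 had overlapping groups. Acot13 (Them2; chromosome 13, 24817948 to 24831540) encodes a small thioesterase of mitochondria that pairs with a lipid transfer protein. It was at 28.6, 36.1 and 35.7 CPM across CTL and at 22.5, 17.1 and 16.3 CPM across Nelfb-/- libraries, so that the groups did not overlap. It was lower with an adjusted p of 0.028 (limma, log2FC -0.85, SE 0.19), but by under 2-fold, and so was not called. Leaving out 1 library gave -0.997 to -0.764 with adjusted p between 0.018 and 0.12. The adjusted p rose above 0.05 without CTL replicate 1 (0.062, log2FC -0.96), CTL replicate 2 (0.11, -0.79), Nelfb-/- replicate 2 (0.096, -0.80) or Nelfb-/- replicate 3 (0.12, -0.76) in these limma fits. Acot13 shares no 50-base window with another gene, and its reads were whole in every library.

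Acot11 (Them1, the brown fat inducible thioesterase; chromosome 4, 106744555 to 106804998) went the other way. It was at 2.66, 3.03 and 5.13 CPM across CTL and at 5.88, 7.51 and 8.16 CPM across Nelfb-/- libraries. CTL replicate 3 was nearest to the Nelfb-/- libraries, and the groups did not overlap. With a log2FC of 1.03 (SE 0.31, limma, adjusted p = 0.070) it missed the limit. It was called higher in 1 of 6 fits without 1 library, that without CTL replicate 3 (1.31, limma, adjusted p = 0.019). These fits gave log2FC values from 0.84 to 1.31, with adjusted p (limma) up to 0.23. The summed brown adipocyte markers were lower in the same Nelfb-/- libraries, as given above.

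Acot8 (chromosome 2, 164792765 to 164804882) encodes a peroxisomal enzyme of broad substrate range. It was at 4.50, 4.91 and 6.86 CPM across CTL and at 7.23, 7.10 and 7.61 CPM across Nelfb-/- libraries, and the groups were apart by a small gap (log2FC 0.45, SE 0.22, limma, adjusted p = 0.22). Together with Snx21, a sorting nexin gene whose end overlaps that of Acot8, the level went the opposite way, from 33.7 ± 1.21 to 25.9 ± 3.49 CPM (SD, n = 3; log2 difference -0.39, SE 0.12, exact permutation p = 0.1). Snx21 alone was at 28.3 ± 0.747 CPM across CTL and at 18.5 ± 3.48 CPM across Nelfb-/- libraries (log2FC -0.62, limma, adjusted p = 0.055).

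Acot7 and Acot9 had overlapping groups. Acot7 (chromosome 4, 152178134 to 152271855), the cytosolic enzyme best known from brain, was at 33.1, 34.3 and 69.3 CPM across CTL and at 31.5, 52.1 and 48.6 CPM across Nelfb-/- libraries. CTL replicate 3 had the most of all 6 libraries, and the log2FC of 0.0074 (SE 0.34, limma, adjusted p = 0.99) turned to -0.060 with TMM scaling, -0.061 with median of ratios scaling and -0.080 with quantile normalization. Acot9, a mitochondrial enzyme, was at 27.3, 27.4 and 35.3 CPM across CTL and at 21.9, 29.9 and 28.8 CPM across Nelfb-/- libraries (log2FC -0.16, SE 0.19, limma, adjusted p = 0.60). Summed with Acot10 it had a log2FC of -0.13 (SE 0.19, limma, adjusted p = 0.68). Acot9 is X-linked, and CTL replicate 1 alone had high Xist (771 CPM against 0.116 to 29.8 CPM in the other 5) and a low sum of 4 Y-linked genes (7.76 CPM against 162 to 264 CPM). The Acot9 value of that library, 27.3 CPM, was within the range of the others.

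Levels can be ordered between genes only per length, in CPM per kb of the transcript with the longest coding part. In CTL cells Acot13 was highest at 46.4 ± 5.82 CPM per kb (SD, n = 3), above Acot2 at 31.5 ± 6.27 and Acot7 at 30.3 ± 13.7. The range of Acot7 overlapped those of both Acot13 and Acot2, and Acot9 followed at 17.1 ± 2.63. A lower group then ran from Acot5 (6.43 ± 0.864 CPM per kb) over Acot4 (5.37 ± 3.02), Acot8 (4.71 ± 1.10), Acot1 (3.43 ± 1.55) and Acot11 (1.23 ± 0.454) to Acot3 (1.17 ± 0.675), and each gene of this group overlapped the next. The order in Nelfb-/- cells was Acot7 (29.3 ± 7.33 CPM per kb), Acot13 (25.8 ± 4.68), Acot9 (15.3 ± 2.46), Acot2 (11.035 ± 1.74), Acot8 (6.35 ± 0.231), Acot11 (2.44 ± 0.400), Acot5 (1.62 ± 0.338), Acot4 (0.990 ± 0.204), Acot1 (0.882 ± 0.423) and Acot3 (0.196 ± 0.0440). Of neighbours in this order, Acot7 with Acot13 and Acot4 with Acot1 overlapped, and the range of Acot5 also met that of Acot1. Acot2 moved from rank 2 to rank 4, Acot8 passed above Acot5 and Acot4, and Acot11 passed above Acot5, Acot4 and Acot1.

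**Figure D4:**
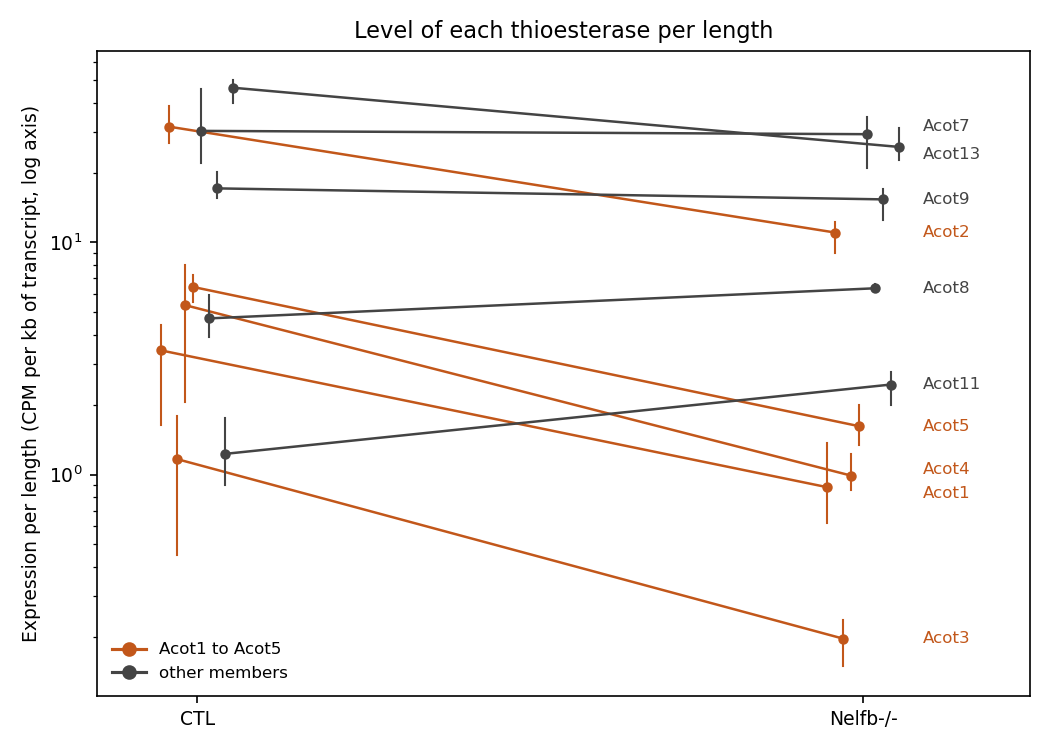
Mean level of each member in CPM per kb of transcript (log axis) in CTL and Nelfb-/- cells, joined by a line, with vertical bars from the lowest to the highest of 3 libraries. The lines of Acot1 to Acot5 fall, those of Acot4 and Acot5 crossing the lines of Acot8 and Acot11 and that of Acot1 crossing the line of Acot11, while the mean of Acot7 goes from 30.3 to 29.3 and that of Acot9 from 17.1 to 15.3 CPM per kb.

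Set against the white adipocyte marker level of each culture, the cluster sum was still lower in Nelfb-/- cells. The summed CPM of the 14 white adipocyte markers was itself 1.59-fold lower (log2 difference -0.67), with overlapping groups. Per 1000 CPM of these markers, Acot1 to Acot5 gave 2.58, 3.21 and 3.90 CPM across CTL and at 1.97, 1.05 and 1.46 CPM across Nelfb-/- libraries. The groups of this ratio did not overlap, and the log2 difference was -1.14, compared with -1.81 before division. Acot3, Acot4 and Acot5 had ratios with groups apart (log2 differences -1.71, -1.58 and -1.34), whereas those of Acot1 (-1.26), Acot2 (-0.84), Acot13 (-0.19), Acot7 (0.68) and Acot9 (0.51) overlapped. In the other direction, the ratios of Acot11 (log2 difference 1.71) and Acot8 (1.12) were above those of every CTL library in all 3 Nelfb-/- libraries. No test was made on these ratios, and the share of all genes with groups apart after the same division was not worked out.

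Other genes that handle acyl-CoA were counted in lists, each to be read against 11.2% of all genes called, 32.5% at an unadjusted p under 0.05 and a median log2FC of 0.068. Of the acyl-CoA synthetases, which make the substrates of the thioesterases, limma called 0 of 17 (7 at an unadjusted p under 0.05), and their median log2FC was 0.14. Among 16 genes of CoA synthesis, transport and breakdown, 12 had negative log2FC values (median -0.43), 7 had an unadjusted p under 0.05, and 1 was called, Dcakd, higher at 40.8 ± 5.83 CPM across CTL and at 89.2 ± 29.9 CPM across Nelfb-/- libraries (log2FC 1.07, limma, adjusted p = 0.050), and its call held in 1 of 6 fits without 1 library (that without Nelfb-/- replicate 1; range of log2FC 0.88 to 1.39). Limma called 0 of 6 acyl-CoA binding proteins (2 at an unadjusted p under 0.05, median -0.13). Other acyl-CoA thioesterases with values were Acot6, Acot10, Them4 and Hibch, of which limma called 0 of 4 (2 at an unadjusted p under 0.05). Hibch, the hydrolase of 3-hydroxyisobutyryl-CoA in valine breakdown, was at 121 ± 46.9 CPM across CTL and at 55.2 ± 8.23 CPM across Nelfb-/- libraries (log2FC -1.05, limma, adjusted p = 0.077). Them4 had a log2FC of -0.19 (limma, adjusted p = 0.66), and Acot10 one of 0.012 (limma, adjusted p = 0.98).

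Genes that carry acyl groups into mitochondria and peroxisomes were called in 4 of 10 cases, 3 lower and 1 higher, with a median log2FC of -0.071. Cpt1b, the carnitine palmitoyltransferase of muscle and brown fat, fell from 19.0 ± 10.3 to 2.58 ± 0.284 CPM (log2FC -2.74, limma, adjusted p = 0.0080). Crat, which moves short acyl groups between CoA and carnitine, had a log2FC of -1.30 (limma, adjusted p = 0.040), and Slc25a20, the carnitine-acylcarnitine carrier, one of -1.20 (limma, adjusted p = 0.014). Cpt1a, the isoform of liver and most other tissues, rose from 49.5 ± 6.61 to 113 ± 43.9 CPM (log2FC 1.13, limma, adjusted p = 0.039). Of 8 PPAR, RXR and coactivator genes 1 was called lower, the coactivator Ppargc1b (log2FC -1.06, limma, adjusted p = 0.013). Without 1 library, the call of Cpt1b held in 6 of 6 fits (log2FC -2.99 to -2.33), that of Slc25a20 in 3 (lost without CTL replicate 1 or 2 or Nelfb-/- replicate 3, log2FC -1.25 to -1.11), that of Crat in 1 (without CTL replicate 3), that of Ppargc1b in 1 (without Nelfb-/- replicate 2) and that of Cpt1a in 0, with all directions kept (adjusted p up to 0.14, limma). Ppara was at 11.7, 9.33 and 7.34 CPM across CTL and at 2.99, 6.11 and 4.41 CPM across Nelfb-/- libraries, with groups apart but no call (log2FC -1.10, limma, adjusted p = 0.067), and Pparg, the main receptor of adipocyte differentiation, went from 140 ± 24.8 to 97.8 ± 12.2 CPM (log2FC -0.51, limma, adjusted p = 0.11).

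**Figure D5:**
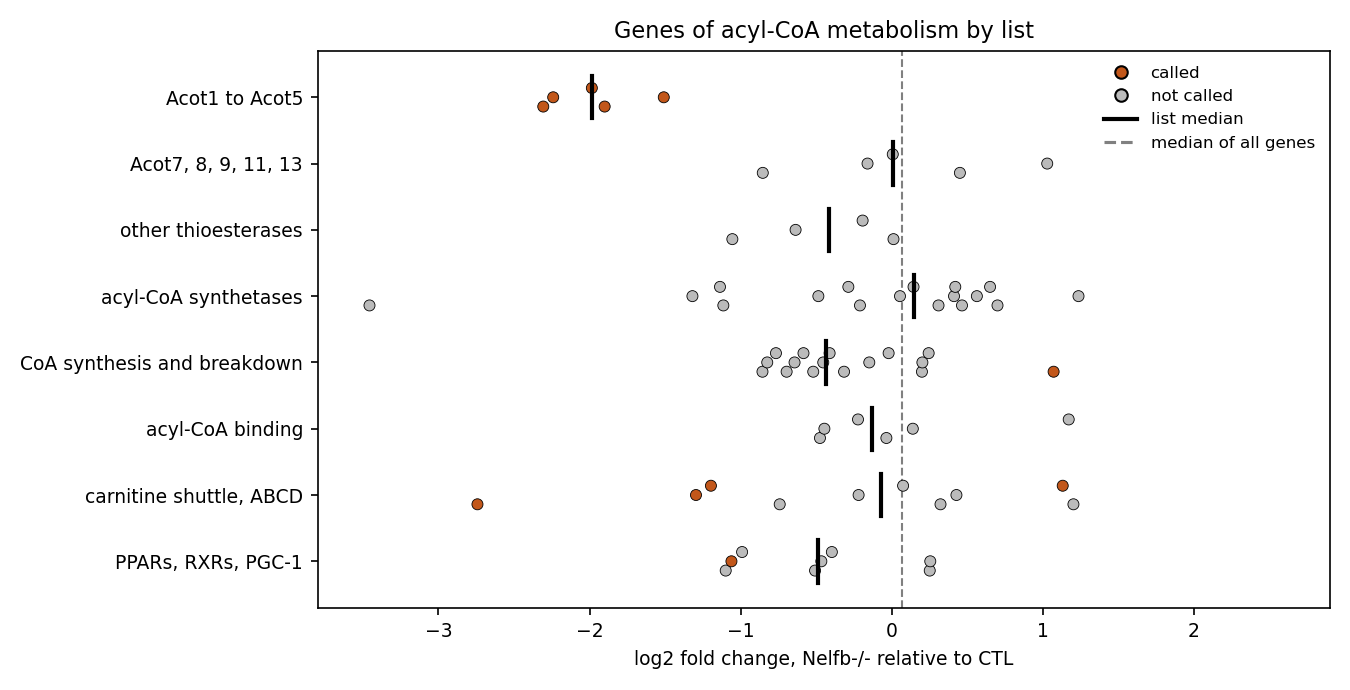
Log2 fold change (x axis, Nelfb-/- relative to CTL) of every tested gene in 8 lists of acyl-CoA metabolism (rows), with called genes in orange, black bars at list medians and a dashed line at the median of all genes, 0.068. The 5 cluster members lie together at the left, while genes of the other lists spread from -3.46 to 1.24.

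Around the cluster, 23 further genes within 500 kb were tested, with a median log2FC of 0.012, and 1 of these was called, against 11.2% of all genes. It was Aldh6a1 (84430717 to 84451005 in the authors' table), the methylmalonate semialdehyde dehydrogenase of valine breakdown, at 795, 881 and 449 CPM across CTL and at 185, 154 and 145 CPM across Nelfb-/- libraries (log2FC -2.08, SE 0.28, limma, adjusted p = 0.0080). Of the 6 fits without 1 library, that without Nelfb-/- replicate 3 alone did not call it (-2.01, limma, adjusted p = 0.051). The nearest tested genes on the 2 sides of the cluster were Riox1 (log2FC 0.28, limma, adjusted p = 0.32) and Dnal1 (0.44, limma, adjusted p = 0.089).

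Promoters of the members were looked at because Acot1 to Acot5 were all called lower in Nelfb-/- cells. Within CTL these genes did not move together, as replicate 3 was highest for Acot2 and lowest for Acot1, Acot3, Acot4 and Acot5. RefSeq windows of 250 bases before to 50 after the start (GRCm38.p6) were matched for 9 of 10 members. AGGTCA, the hexamer that nuclear receptors such as PPARs bind, was searched on both strands and is present in 16.3% of 32851 promoter windows. It was found in the windows of Acot3, Acot4 and Acot5 and in none of the windows of the other 6 matched members. DR1, the direct repeat of this hexamer with 1 base between its copies, is present in 0.0396% of windows and was in none of the 9. The windows of the 3 genes with the hexamer are given here, and capitals mark AGGTCA or its reverse complement TGACCT and, in Acot4, also CACGTG and TATAAA or its reverse complement TTTATA, of which 2 overlap.
Acot4 promoter (chr12:84038129-84038428, plus strand): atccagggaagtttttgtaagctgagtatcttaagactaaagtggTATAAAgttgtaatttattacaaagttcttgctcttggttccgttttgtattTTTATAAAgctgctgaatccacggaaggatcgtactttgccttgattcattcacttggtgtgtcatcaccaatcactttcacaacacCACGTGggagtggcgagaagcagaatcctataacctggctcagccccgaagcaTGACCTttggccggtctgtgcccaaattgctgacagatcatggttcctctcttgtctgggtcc
Acot3 promoter (chr12:84051894-84052193, plus strand): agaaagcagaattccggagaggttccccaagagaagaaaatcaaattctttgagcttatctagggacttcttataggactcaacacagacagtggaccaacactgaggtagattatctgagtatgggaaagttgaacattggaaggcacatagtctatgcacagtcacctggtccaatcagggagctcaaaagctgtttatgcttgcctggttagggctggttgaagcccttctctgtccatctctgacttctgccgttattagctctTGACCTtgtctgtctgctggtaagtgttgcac
Acot5 promoter (chr12:84069074-84069373, plus strand): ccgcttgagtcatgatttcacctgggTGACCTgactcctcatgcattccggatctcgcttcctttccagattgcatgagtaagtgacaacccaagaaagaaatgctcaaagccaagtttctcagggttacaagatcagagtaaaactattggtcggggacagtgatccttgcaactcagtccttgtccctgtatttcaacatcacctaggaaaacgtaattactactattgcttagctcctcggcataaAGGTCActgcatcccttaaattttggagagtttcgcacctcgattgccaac
CACGTG is present in 7.15% and TATAAA in 13.6% of all windows, and among the members CACGTG was also in the window of Acot11 and TATAAA in that of Acot9. GGGCGG, the GC box, was searched too and is in 35.7% of windows, among them those of Acot1, Acot7, Acot8, Acot9 and Acot11. In Acot4 the hexamer starts 13 bases upstream of the annotated start. A match of letters is a description and not evidence of a bound site.

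Acot4 is also the member for which the study designed RT-qPCR primers, so that their fit to the copies is shown.
Forward primer: gggccatgacctgaggag
Reverse primer: ccggtccgaggctatctg
Both matched the coding sequence of Acot4 without a mismatch and enclosed 199 bases of exon 3 (chr12:84043355-84043553, plus strand). The best sites in Acot1, Acot2, Acot3, Acot5 and Acot6 had 5 to 7 mismatches to the forward and 6 to 8 mismatches to the reverse primer.

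Finally, the genes whose values ran most like those of Acot4 and of the cluster sum over the 6 libraries were listed by Pearson r of log2 values, as a description. Among 16240 genes outside the family, 377 had r above 0.95 with Acot4 and 437 with the Acot1 to Acot5 sum. The 6 libraries fall into the same 2 groups for every gene. With Acot4 the top 5 were the non-coding gene Gm49024 (r = 0.9998), Fn3krp (0.9992), Ubl7 (0.9989), Dock11 (0.997) and Tsku (0.996), of which Tsku was called lower. With the sum they were Smim27 (r = 0.998), Rabac1 (0.997), Tmem220 (0.997), Rps12 (0.996) and Unc119 (0.996), of which Tmem220 was not called and the other 4 were called lower.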

How the data were processed

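RNA was measured in 6 libraries, 3 CTL and 3 Nelfb-/-, grouped by their genotype labels. The authors deposited 1 table of CPM values with an offset of 0.0001 on each value, here subtracted. The submitters' processing notes name STAR 2.7, Partek 9.0.20.0202 and mm10; in the study's methods genes under 10 reads were left out and groups were compared by analysis of variance. How reads matching several genes were handled, and strand, are not given in the sources used here. Values of up to 20 reads were whole (within 0.03 read) in 70.1% to 73.5% of cases a library, so no count model was run. CPM were turned into reads at 1 shared depth (22.3 M, with M for 1e+06), and genes averaging 10 or more such reads were tested on log2(reads + 1) with limma 3.58.1 (R 4.3.3, abundance trend, Benjamini-Hochberg over 16252 genes). This scale understates changes of low genes, and p-values measure the spread between these cultures. The Acot1 to Acot5 sum was tested by exact permutation (SciPy 1.17.1).

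Transcripts, windows and identity came from GENCODE vM21 (GRCm38) with Biopython 1.88, and 98.9% of genes matched by name had the same start and end there as in the table, where ends count 1 base further. Scripts were tested on simulated data. The members, lists and alternatives were chosen with earlier results of these data known. Named genes are the members, Nelfb, called genes of the acyl-CoA lists (up to 8 a list), the other thioesterases, genes within 500 kb of the cluster, Pparg, Ppara and the 5 genes most like Acot4 and the sum. Outside this rule, Retn, Lep, Fabp4 and Lpl of the marker lists, Xist and Fam151a are named too. Snx21 and 4732463B04Rik were named after their values were seen. Alternatives were other pseudocounts, filters, scalings and variance models, a replicate block, leaving out each library, and sums of overlapping genes. CUT&RUN, imaging and RT-qPCR of the study were not analysed here.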

Additional observations from a re-analysis of the deposited data

How the results depend on the processing

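Acot2 and Acot5 were called lower under every alternative run, and the direction of Acot1, Acot3, Acot4, Acot8, Acot9, Acot11 and Acot13 was the same under the alternatives run on each gene alone. The sum of Acot8 and Snx21 had the opposite sign (-0.39) to Acot8 (0.45). Most of that sum was Snx21 (28.3 of 33.7 CPM in CTL), which had a log2FC of -0.62 alone. The number of members called was 5, and it was 2 (Acot2 and Acot5) with voom weights and 2 with gene by gene variances without moderation, which also lowered the number of genes called from 1824 to 684. Without 1 library the members called ranged from 2 to 6 and the genes called from 426 (without Nelfb-/- replicate 3) to 2479 (without CTL replicate 3). The call of Acot1 was also lost without the abundance trend (limma, adjusted p = 0.058) and with robust moderation (limma, adjusted p = 0.051). Acot7 changed sign under TMM (-0.060), median of ratios (-0.061) and quantile scaling (-0.080), and ranged from -0.18 to 0.35 without 1 library. The cause of these changes was not tested, and fits without 1 library also had fewer samples. The Acot1 to Acot5 sum ranged from -1.89 to -1.70 without 1 library, where the smallest exact p is 0.2, and was -1.94 with quantile normalization and -1.71 per kb; only as 1 feature in limma (-1.81, adjusted p = 0.0035) was it past the 0.05 threshold, which exact tests of 3 against 3 cannot reach.

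The replicate numbers do not pair the samples by the labels, and deviations from the group means correlated at 0.515, -0.395 and 0.518 for numbers 1, 2 and 3. Unlike numbers correlated as much, at 0.48 for CTL 2 with Nelfb-/- 1 and 0.536 for CTL 3 with Nelfb-/- 2, and down to -0.631 for CTL 3 with Nelfb-/- 1. With a replicate block, 2175 genes and 5 members were called, and the sum stayed at -1.81 (exact sign permutation over pairs, p = 0.25, the smallest possible).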

Other observations

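Ratios between members differed in how steady they were. Acot4 was 8.71, 8.07 and 8.30 times Acot3 in CPM in CTL replicates 1, 2 and 3 and 9.37, 7.66 and 10.7 times in Nelfb-/- replicates 1, 2 and 3. Acot2 was 1.56, 1.30 and 6.63 times Acot4 in CTL and 3.40, 3.72 and 4.93 times in Nelfb-/- cells, so that the spread within CTL was wider than the whole range of Nelfb-/- cells. Per kb, Acot13 was 1.49, 1.71 and 1.28 times Acot2 in CTL and 2.65, 2.61 and 1.84 times in Nelfb-/- cells, with groups apart. These ratios were chosen after their values were seen, and none was tested.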
